A study of Mus musculus with 2 samples.

Results

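Chemokines are small secreted proteins that steer leukocytes along concentration gradients, and they act through receptors of the G protein-coupled kind on the responding cell. Inflammatory chemokines are switched on by cytokines and microbial products, whereas homeostatic ones are made steadily in defined tissues and position cells there. In the allergic airway, eotaxins draw eosinophils through Ccr3, and Ccl17 and Ccl22 draw type 2 lymphocytes. H3K4me3, a histone mark found at the starts of active or poised genes, was examined here at the chemokine and chemokine receptor genes of lung group 2 innate lymphoid cells (ILC2s), tissue-resident lymphocytes that secrete type 2 cytokines. The genes were the autosomal protein-coding members of 4 families in the GENCODE annotation, Ccl, Cxcl, Ccr and Cxcr, without Ccr2, Ccr4, Ccr8, Ccr9, Cxcr4 and Cxcr6. This gave 45 genes, 35 ligands and 10 receptors, of 20807 autosomal protein-coding genes. Cxcr3, which lies on chromosome X, Cxcl11, annotated as a polymorphic pseudogene, and the pseudogenes Ccl19-ps1 and Ccl19-ps3 were outside this set.

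The study asked how asthma of the mother during pregnancy shapes lung ILC2s of her offspring. Mothers were sensitised to ovalbumin (OVA, 100 µg a dose in alum) and received repeated intranasal doses of 500 µg OVA each between gestation days 4 and 17, and control mothers received alum and phosphate-buffered saline (PBS) in the same way. H3K4me3 was profiled by CATCH-seq, a carrier-assisted ChIP-seq for few cells, in about 3000 ILC2s sorted from lungs of adult offspring labelled as 8 weeks old, with no treatment of the offspring given in their labels. There was 1 library of offspring of control mothers, whose peaks are called the control list here, and 1 of offspring of asthmatic mothers, whose peaks are called the asthmatic-mother list, each from an experiment with 1 dam per group, so no value has a replicate and no test between the groups was possible. The deposited lists, 1 for each library, held 42126 and 51610 peaks with median widths of 315 and 249 bp. Read totals were not given with the lists, and the number of fragments at a summit was solved from each peak's fold and −log10 p. The fewest at any summit were 9 fragments in the control list and 8 in the asthmatic-mother list, and the medians were 21 and 18. Of 14 ILC2 markers, 11 and 8 had a peak within 1000 bp of a start, with Gata3, Il5 and Il7r in the control list only and Icos, Klrg1 and Il13 in neither list. Markers of T cells, B cells, macrophages, neutrophils and fibroblasts, 5 or 6 genes each, had none in either list. In the control list only, 2 of 5 epithelial markers, Cdh1 and Epcam, and 1 of 4 endothelial markers, Kdr, had a start peak. Over all autosomal protein-coding genes, 52.5% and 43.7% had such a peak, 9.37% in the control list only and 0.634% in the other only. No difference between the groups is read from the markers found in 1 list only.

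Few of the chemokine and receptor genes carried H3K4me3 at a start. A peak within 1000 bp of any annotated transcript start, called a start peak here, was found at 4 of 45 genes in the control list and at 4 of 45 in the asthmatic-mother list. Over all autosomal protein-coding genes the shares were 52.5% and 43.7%. The 4 genes were the ligands Cxcl12, Ccl25 and Ccl27a and the receptor Ccr3 in both lists. Of all genes with a start peak in the control list 82.1% had one in the asthmatic-mother list as well, and the reverse share was 98.5%, so the overlap of 4 of 4 genes is near the background. No member had a start peak in 1 list only, beside 9.37% of all genes for the control list and 0.634% for the other, and with 4 marked genes nothing is read from these counts of 0. The members' share of 8.89% had an exact Clopper-Pearson 95% interval of 2.48 to 21.2%, which covers counting error only. Of the 6 receptors outside the set, left out with these lists known, 5 and 2 had a start peak, so the share of the set is lower than with them. The other 41 genes had no start peak in either list, so no signal there passed the caller's threshold at these depths, which does not show that the mark was absent.

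**Figure D1:**
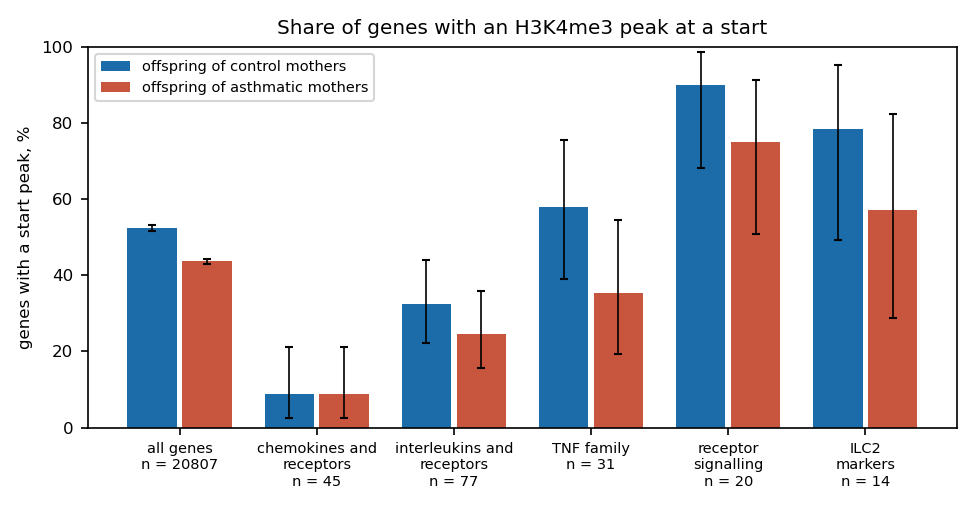
Share of genes with an H3K4me3 peak within 1000 bp of a start, in percent, for all autosomal protein-coding genes and 5 gene groups in the 2 peak lists (bars, with exact Clopper-Pearson 95% intervals as error lines, counting error only). Chemokines and receptors, without the 6 receptors left out with these lists known, stood at 8.89% in both lists, beside 52.5% and 43.7% of all genes.

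Other immune families were marked more often, and no test of the difference was made. The chemokine set lacks 6 receptors left out with these lists known, of which 5 and 2 had a start peak. The families below were counted whole, so the gap is wider than with those receptors counted. Interleukins and their receptors had a start peak at 25 of 77 genes (32.5%) in the control list and at 19 of 77 (24.7%) in the asthmatic-mother list. Tumour necrosis factor ligands and receptors had one at 18 of 31 (58.1%) and 11 of 31 (35.5%). Genes that carry the signal from a chemokine receptor into the cell, such as G protein subunits, arrestins and Rac GTPases, had one at 18 of 20 (90%) and 15 of 20 (75%). Dock2, Pik3cg and Rgs1 had it in the control list only, beside 9.37% of all genes. Of all genes with a start peak in the control list, 82.1% had one in the other list too, so nothing is read from these 3 genes. Over all genes the shares with a start peak were 52.5% and 43.7%.

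Cxcl12, the homeostatic ligand of Cxcr4 that retains leukocytes and progenitors in tissues, had its peaks at a start of its own, far from other genes. The control peak lay at chr6:117168345-117168854 (GRCm38), spanned 510 bp and had its summit 14 bp upstream of the first annotated start. Its −log10 q was 8.66, at percentile 56.9 of that list, from 17 fragments (exact Poisson 95% interval 9.90 to 27.2). The peak of the asthmatic-mother list lay within it at chr6:117168422-117168614, spanned 193 bp and had a −log10 q of 5.17, at percentile 22.2, from 12 fragments (6.20 to 21.0). Both peaks thus covered the first exon's start, and the second stood low in its list. The next start of another protein-coding gene, Tmem72, was 451622 bp away, and the 75 bases around each summit had no exact copy elsewhere in the genome. Cxcl12 is known as a product of stromal and endothelial cells, which lack CD45. The study's gate for ILC2s of adult lungs took cells with CD45, CD90.2 and ST2 and without lineage markers. The purity of the sorted cells is not given in the sources used here. All 5 fibroblast markers were without a start peak in both lists. In the control list only, Kdr of the 4 endothelial markers and Cdh1 and Epcam of the 5 epithelial markers had one. The part of other cells in this peak was not tested, and a mark in few of the sorted cells cannot be told apart from a weak mark in all of them.

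Ccl25, which attracts Ccr9-bearing lymphocytes to the gut and thymus, shared its start with another gene. Elavl1, which encodes an RNA-binding protein made in most cells, starts on the opposite strand within the same stretch, with annotated starts at positions 4325086 and 4325413 of chromosome 8. The first Ccl25 start is at position 4325210. The control list held a peak at chr8:4324449-4325101 with a −log10 q of 19.3 from 35 fragments (24.4 to 48.7) and another at chr8:4325243-4325532 with 9.12 from 23 fragments (14.6 to 34.5). The asthmatic-mother list held peaks at chr8:4324488-4325061 with 10.7 from 19 fragments (11.4 to 29.7) and at chr8:4325263-4325450 with 7.00 from 15 fragments (8.40 to 24.7). In each list the first peak, with the higher −log10 q, had its summit in an exon of Elavl1, upstream of every start of Ccl25, and the second lay over first exons of both genes. When each peak was counted only at the gene whose start was nearest to its summit, Ccl25 had none in either list. The mark at Ccl25 and that at Elavl1 cannot be told apart. No peak was listed at the separate downstream starts of Ccl25.

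Ccl27a, a ligand of Ccr10 known from skin, had the highest −log10 q of the set, but the sequence under its peaks is repeated along chromosome 4. The gene has 18 distinct annotated starts between positions 41770212 and 41774247, on the minus strand, and peaks lay only at the upstream ones. The control list held a peak at chr4:41773163-41773720 with a −log10 q of 22.1, at percentile 96.6, from 37 fragments (26.1 to 51.0). A further control peak at chr4:41773851-41774117 had 6.60 from 19 fragments (11.4 to 29.7) and no counterpart in the other list. The asthmatic-mother list held a peak at chr4:41773197-41773757 with 19.6, at percentile 97.3, from 31 fragments (21.1 to 44.0). The stretch under the first control peak occurs at 8 other places on chromosome 4 with 98.7 to 99.1% identity, one of them upstream of Ccl27b, and the stretch under the second occurs at 8 other places with 100% identity. The 30 bases around the summit of that second peak, from the RefSeq GRCm38.p6 sequence at chr4:41773999-41774028 on the minus strand, show what those 9 places share, with the CpG in capitals.

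Ccl27a: tttggtgactccaagttCGggtccctagat

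A peak lay at 9 of the 9 copies of the first stretch in the control list and at 8 of 9 in the asthmatic-mother list. At the copies of the second stretch the counts were 9 of 9 and 0 of 9. The highest −log10 q at each copy of the first stretch ran from 3.54 to 22.1 in the control list, with a median of 14.8, and from 8.50 to 19.6 over 8 copies in the other list, with a median of 9.48. Ccl27a had the highest value among the copies in both lists. Ccl27b itself was called unmarked, since its only GENCODE start lay 3688 bp from the nearest control peak, chr4:42651073-42651563 with 35 fragments, and 3756 bp from the nearest peak of the other list, chr4:42651154-42651495 with 24. Reads from identical copies cannot be assigned to one of them, so the fragments of Ccl27a, Ccl27b and the other copies are uncertain as values of a single gene.

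**Figure D2:**
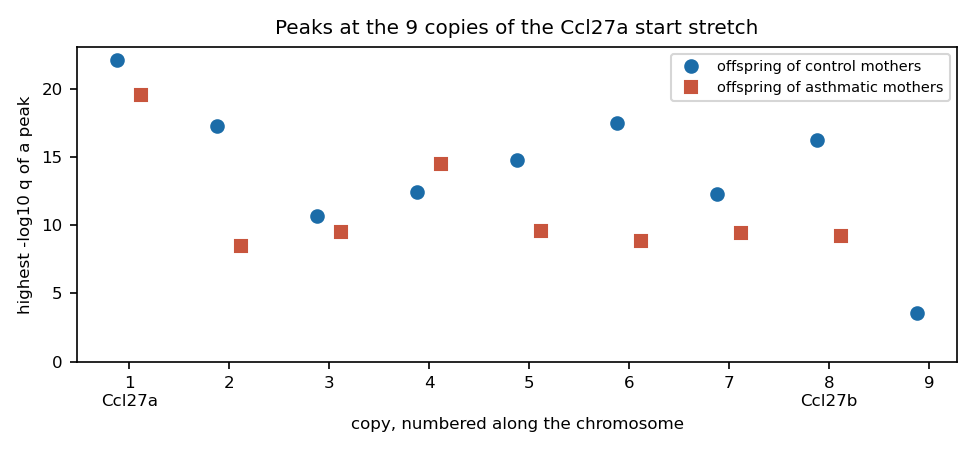
Highest −log10 q of a peak (vertical axis) at each of the 9 copies of the stretch under the first control peak of Ccl27a, numbered along chromosome 4 (horizontal axis), with circles for offspring of control mothers and squares for offspring of asthmatic mothers. Ccl27a, copy 1, stood highest in both lists at 22.1 and 19.6, copy 8 lies upstream of Ccl27b, and copy 9 had a control peak only, at 3.54.

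Ccr3, the eotaxin receptor that guides eosinophils, was the only one of the 10 receptors with a start peak, and the peak lay at the edge of the 1000 bp window. The control peak lay at chr9:124020744-124021079, 893 bp upstream of the start, with a −log10 q of 9.76 from 18 fragments (10.7 to 28.4). The asthmatic-mother peak lay at chr9:124020795-124021008, 964 bp upstream, with 6.86 from 14 fragments (7.65 to 23.5). The summits were 1104 and 1080 bp from the start, so a rule on the summit left Ccr3 without a start peak, and so did a distance of 500 bp. Both peaks were masked as repeats over 100% of their length and overlapped no annotated exon. The 75 bases around the summits had 7978 and 7744 exact copies elsewhere in the genome. The sequence around the control summit, at chr9:124020831-124020905 on the plus strand of RefSeq GRCm38.p6, is given to show that repeat, with its CpG in capitals.

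Ccr3 upstream repeat: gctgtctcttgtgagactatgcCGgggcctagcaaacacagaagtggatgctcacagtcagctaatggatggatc

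Over all start peaks of protein-coding genes, a summit with an exact copy elsewhere was found for 3.04% in the control list and 4.52% in the asthmatic-mother list. Among the members' start peaks it was 3 of 6 and 2 of 5. Restricted to summits without a copy, the set had 2 marked genes in each list, Cxcl12 and Ccl25, while the shares over all genes were 51.1% and 42.2%.

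**Figure D3:**
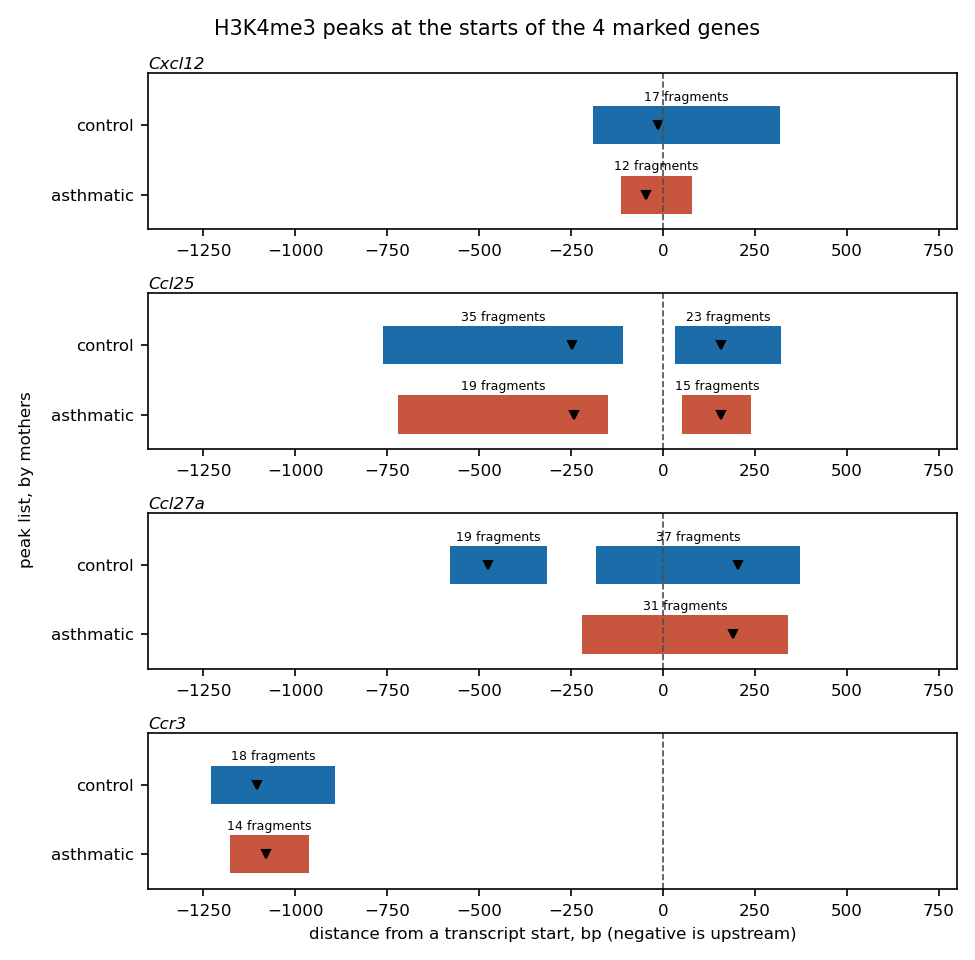
Listed peaks (bars) and their summits (triangles) at the 4 marked genes, by distance in bp from a transcript start (dashed line, the first start for Cxcl12 and Ccl25, the start nearest to the tallest summit for Ccl27a), with the solved number of fragments at each summit, for offspring of control and of asthmatic mothers. Cxcl12 peaks covered the start with 17 and 12 fragments, and Ccr3 peaks ended 893 and 964 bp before it.

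The members' start peaks were of middling height within their lists. The median percentile of their −log10 q was 63.4 over 6 peaks in the control list and 49.3 over 5 peaks in the asthmatic-mother list, beside 77.3 and 54.0 for all start peaks of protein-coding genes. Their median widths were 423 and 214 bp, beside 477 and 321 bp. The percentiles rank against lists made mostly of repeats. Peaks masked as repeats over their whole length were 63.3% and 75.2% of all peaks on assembled chromosomes. Among start peaks of protein-coding genes they were 1.02% and 2.33%. Folds and q values were not scaled between the libraries, so the lists were not compared with each other on these values.

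Among the inflammatory ligands no start peak was listed. The CXC ligands that recruit neutrophils, Cxcl1, Cxcl2, Cxcl3, Cxcl5 and Cxcl15, had their nearest peaks 11086 to 58632 bp from a start in the control list and 11194 to 58976 bp in the asthmatic-mother list. Cxcl9 and Cxcl10, induced by interferons, had theirs 18086 and 38875 bp away in the control list and 18167 and 38956 bp in the other. The monocyte attractants Ccl2, Ccl7, Ccl8 and Ccl12 ranged from 9094 to 88669 bp and from 28781 to 108356 bp. Ccl3, Ccl4, Ccl5, Ccl6 and Ccl9, of the macrophage inflammatory protein kind, ranged from 21219 to 75963 bp and from 21084 to 75811 bp. The study's supplementary gene lists hold Cxcl2, Ccl6 and Cxcl15. Those lists give RNA differences in fetal lung ILC2s, macrophages and alveolar epithelial cells, and gene sets used to score fetal lung ILC2s. They differ from the adult peaks here in stage and in measure. The nearest peaks were 11086 and 11194 bp from Cxcl2, 33952 and 33817 bp from Ccl6 and 23476 and 23820 bp from Cxcl15.

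Ligands of type 2 immunity were unmarked as well. The eotaxins Ccl11 and Ccl24, which are ligands of Ccr3, had their nearest control peaks 66456 and 14498 bp away. In the asthmatic-mother list theirs were 86143 and 4566 bp away. Ccl26 had its nearest peaks 5018 and 2324 bp away. The Ccr4 ligands Ccl17 and Ccl22 had theirs at 10753 and 51207 bp, and at 10734 and 52454 bp. Ccl1, the ligand of Ccr8, had its nearest peak at 28588 and 28550 bp. Of the homeostatic and mucosal CC ligands, Ccl19, Ccl20, Ccl21a, Ccl21b, Ccl27b and Ccl28 had no start peak, and of the other CXC ligands, Cxcl13, Cxcl14, Cxcl16 and Cxcl17 had none. Cxcl14 lay farthest from a control peak, at 144299 bp, and Ccl2 farthest from one of the other list, at 108356 bp.

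Of the 10 receptors, 9 had no start peak in either list, among them Ccr1, Ccr6, Ccr7 and Ccr10 of the CC kind and Cxcr1, Cxcr2 and Cxcr5 of the CXC kind. Ccr7 and Cxcr5, which bring lymphocytes into lymph nodes and B cell follicles, had their nearest peaks at 19084 and 42120 bp in the control list and at 19302 and 42120 bp in the asthmatic-mother list. Cxcr1 and Cxcr2, the neutrophil receptors for the ligands above, had theirs at 41886 and 29074 bp and at 41963 and 82603 bp. By contrast, of the 6 receptors left out of the set, Ccr2, Ccr4, Ccr8, Ccr9 and Cxcr4 had a start peak in the control list and Ccr8 and Cxcr4 in the other. Cxcr6 had none in either list. That division was made with these lists known and is not a finding. Of 12 atypical receptors and chemokine genes of other names, Ccrl2 had a start peak, in both lists.

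**Figure D4:**
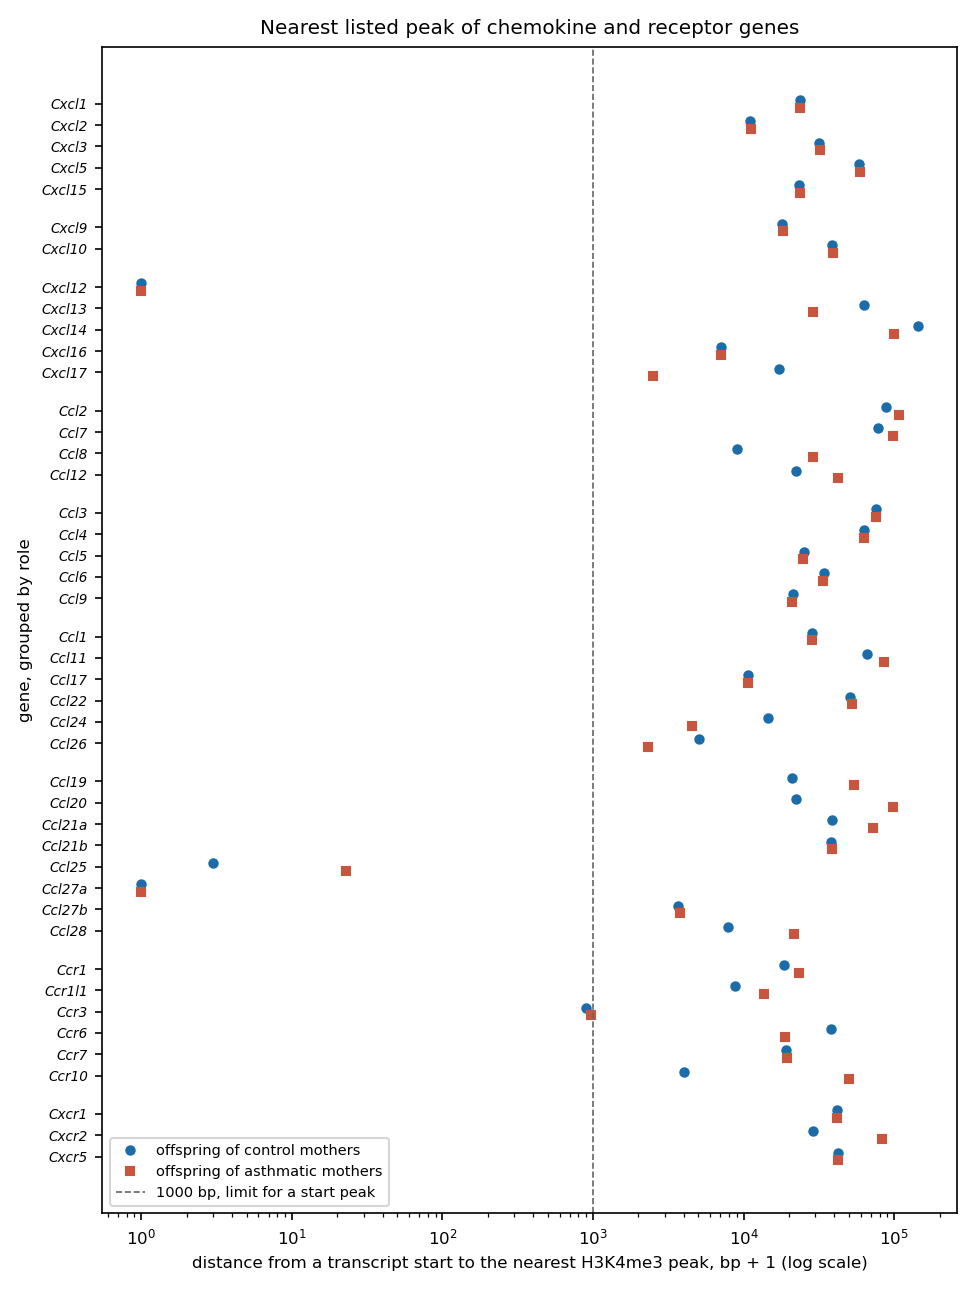
Distance in bp + 1 (log axis) from a transcript start to the nearest listed peak for 44 of the 45 genes, grouped by role, with circles for offspring of control mothers, squares for offspring of asthmatic mothers and a dashed line at 1000 bp. Cxcl12, Ccl25, Ccl27a and Ccr3 lie left of the line in both lists and the other 40 genes plotted lie right of it.

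Over the 45 genes, the median distance to the nearest peak was 22427 bp in the control list and 28781 bp in the asthmatic-mother list, beside 208 and 4533 bp over all genes. A peak within 10000 bp was listed for 12 and 9 members, beside 63.5% and 58.8% of all genes. Beyond the 4 marked genes these included Ccl8, Ccl26, Ccl27b, Ccl28, Ccr1l1, Ccr10 and Cxcl16 in the control list and were Ccl24, Ccl26, Ccl27b, Cxcl16 and Cxcl17 in the other. Several of these peaks lay at the start of a neighbour or in repeated sequence. The Cxcl16 peaks, 7068 and 7102 bp away with 20 and 15 fragments, lay 0 and 19 bp from the start of Med11, a subunit of the Mediator complex. The Ccr10 peak, 4041 bp away with 18 fragments, covered the start of Plekhh3. The Ccl28 peak of 12 fragments lay inside the gene, 7826 bp from a start, and had the smallest width of the control list, 190 bp. These were the peaks away from a start whose summits had no copy elsewhere, 3 of 9 in the control list and 1 of 5 in the asthmatic-mother list. The remaining summits had between 1 and 679 exact copies.

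Chemokine genes lie in clusters, and peaks inside the clusters were mostly at repeated sequence. The 9 clusters of members less than 1000000 bp apart held 46 peaks in the control list and 35 in the asthmatic-mother list. The summit had an exact copy elsewhere for 45 of 46 (97.8%) and 34 of 35 (97.1%), beside 65.4% and 77.2% of all peaks. The control peak without a copy was that of Ccr2, which neighbours Ccr3 on chromosome 9 and is not in the set, and the other was at chr11:83555339-83555532 among Ccl5, Ccl9, Ccl6, Ccl3 and Ccl4, away from any start, with 13 fragments. The cluster of Ccl2, Ccl7, Ccl11, Ccl12, Ccl8 and Ccl1 on chromosome 11 held 3 and 1 peaks over 270 kb, that of Cxcl5, Cxcl3, Cxcl15, Cxcl1 and Cxcl2 on chromosome 5 held 3 and 3, and Cxcr2 with Cxcr1 and Cxcl9 with Cxcl10 held none. The cluster from Ccl27a to Ccl21a on chromosome 4 held 31 and 23, all with copied summits.

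What most members shared apart from family was a start poor in CpG. CpG-rich starts carry H3K4me3 in most cell types, whereas CpG-poor starts tend to gain it in the cells that use them. Within 500 bp of the gene's 5′ end, the median ratio of observed to expected CpG was 0.185 over the 45 genes and 0.568 over all genes. With a ratio of at least 0.6 and at least 50% G and C taken as CpG-rich, 4 members (8.89%) were CpG-rich, Ccl25, Cxcl12, Cxcl14 and Cxcl16, beside 45.7% of all genes. Of these 4, Ccl25 and Cxcl12 had a start peak in both lists, beside 85.1% and 73.5% of all CpG-rich genes. Of the 41 CpG-poor members, Ccl27a and Ccr3 had one (4.88% in each list), beside 25.0% and 18.7% of all CpG-poor genes. Ccl25 had a ratio of 1.08, Cxcl12 0.782, Cxcl14 0.717 and Cxcl16 0.607, and Ccl27a and Ccr3 had 0.440 and 0.119. The trait is not particular to the set. Among the receptors left out, Ccr2 (0.172), Ccr4 (0.267), Ccr8 (0.224) and Cxcr6 (0.173) were CpG-poor too. Of these, Ccr2, Ccr4 and Ccr8 had a start peak in the control list and Ccr8 in the other. Ccr9 (0.927) and Cxcr4 (0.625) were CpG-rich.

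**Figure D5:**
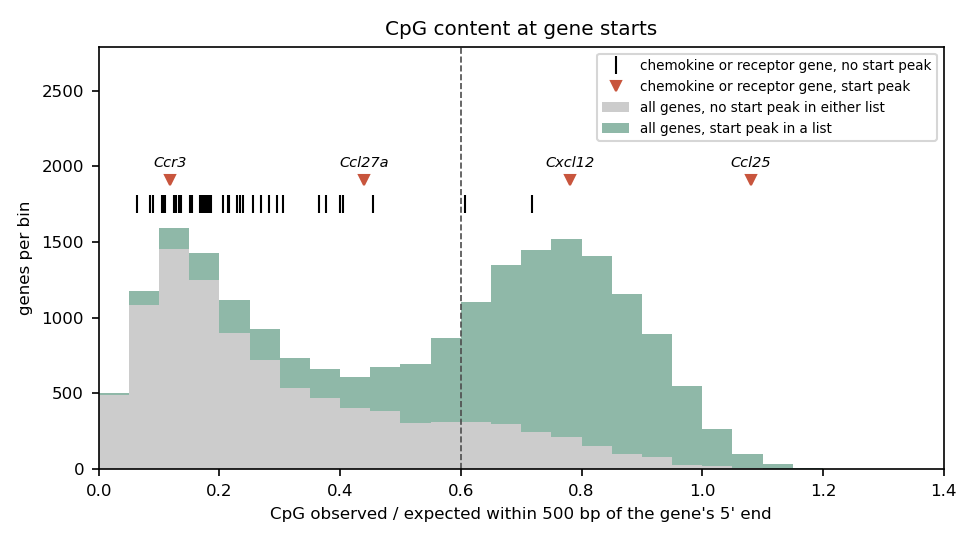
Ratio of observed to expected CpG within 500 bp of the 5′ end (horizontal axis) of all autosomal protein-coding genes, as genes per bin (bars, split by whether a start peak was in a list), with each chemokine or receptor gene as a tick or, where it had a start peak, a named triangle. Of the 45 genes 41 lie left of the dashed line at 0.6, and the marked ones were at 0.119, 0.440, 0.782 and 1.08.

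As examples of CpG before a start, 150 bases before the first start are given for 4 genes. These are Cxcl12, marked and CpG-rich, Cxcl14, CpG-rich without a start peak, Cxcl2, an inflammatory ligand without one, and Ccr3. Ccr3 is CpG-poor, and its peaks lay farther upstream than this stretch. The first start is the most upstream one of GENCODE and RefSeq, which for Ccr3 is the RefSeq start, 1 bp before that of GENCODE. The sequences are from RefSeq GRCm38.p6, 5′ to 3′ on the strand of the gene, with each CpG in capitals, at chr6:117168385-117168534 (plus), chr13:56296552-56296701 (minus), chr5:90903721-90903870 (plus) and chr9:124021821-124021970 (plus). They hold 12, 14, 8 and 0 CpG.

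Cxcl12: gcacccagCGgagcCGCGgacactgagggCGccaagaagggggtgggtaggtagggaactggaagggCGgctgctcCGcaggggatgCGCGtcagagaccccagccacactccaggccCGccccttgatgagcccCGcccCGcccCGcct

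Cxcl14: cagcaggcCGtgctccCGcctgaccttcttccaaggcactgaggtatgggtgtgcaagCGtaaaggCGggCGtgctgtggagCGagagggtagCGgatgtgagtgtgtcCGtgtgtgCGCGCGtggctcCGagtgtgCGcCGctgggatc

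Cxcl2: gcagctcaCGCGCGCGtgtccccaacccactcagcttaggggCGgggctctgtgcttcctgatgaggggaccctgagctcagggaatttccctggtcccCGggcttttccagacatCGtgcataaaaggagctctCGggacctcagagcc

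Ccr3: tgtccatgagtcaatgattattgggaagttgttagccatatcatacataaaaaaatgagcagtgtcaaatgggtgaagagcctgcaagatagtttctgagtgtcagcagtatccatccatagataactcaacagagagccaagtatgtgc

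Within 500 bp of the 5′ end, Cxcl12 held 76 CpG and Cxcl14 held 72. The nearest peaks of Cxcl14 were 144299 and 99850 bp away. Motif letters were also counted in the RefSeq promoter windows, 250 bases before to 50 after a start, which were found for 31 of the 45 genes and for 15687 protein-coding genes in all. Genes with several windows counted when any window matched. The kappaB motif bound by NF-kappaB, searched on both strands, was in 9 of 31 members (29.0%) and in 5.84% of all genes. It was found at Cxcl1, Cxcl2, Cxcl3, Cxcl10, Ccl9, Ccl20 and Ccr6, which had no start peak, and at Ccl27a and Ccr3, which had one. The TATAAA letters on the gene's strand were in 8 of 31 (25.8%) beside 9.43%, and TGANTCA, the AP-1 motif, which reads alike on both strands, in 8 of 31 (25.8%) beside 8.20%. TTCNNNNGAA, a STAT6 motif, was in 1 of 31, Ccl17 (3.23%), beside 7.31%. The letters AGATAA, which Gata3 and its relatives bind, were in 7 of 31 (22.6%) beside 10.8%. TTGNNNAA, which C/EBP factors bind, was in 16 of 31 (51.6%) beside 36.7%. No test was made of these shares, and a match of letters is not a bound site. Cxcl1 and Cxcl10, both without a start peak, are given as examples with the kappaB matches in capitals, 150 bases before the first start at chr5:90891091-90891240 (plus) and chr5:92348890-92349039 (minus), 5′ to 3′ on the strand of the gene.

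Cxcl1: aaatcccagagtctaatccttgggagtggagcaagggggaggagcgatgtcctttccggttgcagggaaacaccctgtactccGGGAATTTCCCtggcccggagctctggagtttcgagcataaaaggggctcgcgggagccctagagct

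Cxcl10: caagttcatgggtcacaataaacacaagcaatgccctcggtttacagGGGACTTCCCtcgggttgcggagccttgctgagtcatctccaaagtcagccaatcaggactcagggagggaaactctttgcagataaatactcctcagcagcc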

How the data were processed

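The authors trimmed reads with Trim Galore and cutadapt, aligned them to mm10 (GRCm38) with Bowtie2 and removed duplicates. The peak caller, its threshold and any control used in calling are not given in the sources used here. The study's methods kept a small part of the lysate for an input library, and whether calling used it is not stated. The study's reporting summary says that peak calling was not done for the ChIP-seq. A deposited line holds the peak's position, a score, which follows the −log10 q, the authors' fold (a ratio of signal to the caller's background) and the authors' −log10 p and −log10 q, which describe the peak's p-value and q-value against that background. These were ranked within a list only.

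Peak positions, counted from 1, were joined to transcript starts of GENCODE M21 for GRCm38. A peak with any base within 1000 bp of a start was a start peak. Fragments at a summit were solved from fold and −log10 p under a Poisson model without a control, with 1 added to signal and background, which fitted 99.99% of peaks of each list within 0.001. They are derived values. The reporting summary gives 1 sequencing total for the ChIP-seq, and the depth of each library is not given in the sources used here. Exact matches to the 75 bases centred on a summit were counted along both strands of the 21 assembled chromosomes, the summit's own place left out. Copies of the Ccl27a stretches covering at least 80% of a stretch were found with BLAST+ 2.17.0. GC, CpG and repeat masking came from RefSeq GRCm38.p6, and promoter windows from RefSeq for 31 of 45 genes. Among the genes not matched there were Ccl2, Ccl4, Ccl5, Ccl7, Ccl11, Ccl24, Ccl26, Ccr7, Ccr10, Cxcl5, Cxcl16, Cxcl17 and Cxcr5.

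Members with a start peak or a peak within 10000 bp are named, the rest by role, and 1 gene is counted but not reported by name here. The members, the lists and the settings were chosen with earlier results of these data known. With 1 library per group no test was made. Start peaks, overlaps and solved fragments were tested on simulated data. Alternatives were the distance, the starts counted, stricter peaks, summits without copies, the summit in place of any base, and the nearest gene. The scripts ran in Python 3.11.15 with pandas 2.3.3, numpy 2.4.6, matplotlib 3.10.9 and scipy 1.17.1. The other assays of the series were not used here.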

Additional observations from a re-analysis of the deposited data

How the results depend on the processing

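The members' counts of start peaks in each list, in both and in 1 list only, and those of ligands and of receptors in the control list, were recomputed under 8 other settings. The counts of other gene groups, of peaks within 10000 bp, in clusters and by CpG content were not. The genes with a start peak were the same in both lists under every one of them, with 0 in 1 list only. A distance of 2000 bp, a −log10 q of at least 5, and only the gene's outermost 5′ end as its start each left 4 genes in each list. A distance of 500 bp and the summit in place of any base of the peak left 3, without Ccr3, so that 0 receptors were marked in offspring of control mothers. Counting each peak at the nearest gene left 3, without Ccl25. Summits without an exact copy left 2 in each list and in both, Ccl25 and Cxcl12, and 0 receptors, with 51.1% and 42.2% of all genes marked. The 10000 peaks of highest −log10 p left 2 in each list and in both, Ccl25 and Ccl27a, and 0 receptors, with 33.8% and 9.82% of all genes marked. The median percentile of the members' start peaks, 63.4 and 49.3 by −log10 q, was 72.7 and 65.0 by fold and 66.9 and 37.8 by width. No paired analysis was possible because each group had 1 library, and for the same reason no replicate could be left out. Summits with 9 or 8 fragments were the smallest listed, so weaker marks were not detectable at this depth.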
